A study of Mus musculus with 16 samples.

Results

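Transcripts of 6 carbonic anhydrases (*Car2*, *Car3*, *Car4*, *Car5b*, *Car8* and *Car14*) and 3 aquaporins (*Aqp1*, *Aqp4* and *Aqp7*) were followed in skeletal muscle of HFD-fed mice. They were taken from the deposited count table by gene symbol. The rule names no measured value, but the symbols were chosen with earlier results of these data known. They are 9 of its 55471 genes. All 9 were among the 14331 genes that passed the filter on low counts. RNA of 16 male mice was sequenced, 10 labelled Npr1+/- (heterozygous for B6.129-Npr1tm1Gar/J) and 6 labelled Npr1+/+ (littermate controls), all backcrossed to C57BL/6J and without other agent. *Npr1* encodes GCA, the receptor of atrial natriuretic peptide, and the allele is carried in every cell of the animal and not in muscle alone. HFD, with 60% of its energy from lipid, was given for 12 weeks from 12 weeks of age. Each library is 1 mouse. The labels do not say which muscle was sampled.

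Depth was 15832624 to 59682677 counts per library in Npr1+/- mice and 15273472 to 29630298 in Npr1+/+ mice. The mice weighed 43.6 ± 3.79 g (SD, n = 10) and 47.4 ± 4.69 g (SD, n = 6), and the 4 cages held 2, 3, 1 and 4 Npr1+/- mice of 4, 4, 3 and 5. The targeted transcript, *Npr1*, was at 13.6 ± 3.87 CPM (counts relative to library size, after TMM scaling; SD, n = 10) in Npr1+/- libraries and at 12.2 ± 1.05 CPM (SD, n = 6) in Npr1+/+ libraries. The fitted log2 fold change of *Npr1* was 0.09 (SE 0.20, adjusted p = 1.0 in edgeR), so each direction is between libraries as labelled. The paper itself reports lower *Npr1* mRNA and lower GCA protein in skeletal muscle of Npr1+/- mice. *Acta1*, the actin of skeletal muscle fibres, was at 28906 CPM on average, and all 7 fibre markers were detected. All 11 endothelial and 7 macrophage markers, 9 of 10 adipocyte markers and 5 of 8 erythrocyte markers also passed the filter, so the tissue held RNA of several cell types. In such bulk samples, fewer cells of a type and less RNA per cell cannot be told apart.

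Carbonic anhydrases convert carbon dioxide and water to bicarbonate and a proton, and a zinc ion held by histidines does the chemistry. *Car2* encodes the fast cytosolic enzyme, *Car3* the slow cytosolic enzyme that is abundant in muscle fibres and adipocytes, and *Car5b* the mitochondrial form. *Car4* (anchored to the membrane by a lipid) and *Car14* (which spans the membrane) face the outside of the cell. *Car8* encodes a related protein without catalytic activity. Aquaporins let water cross membranes. *Aqp1* is the water channel of capillary endothelium and erythrocytes, *Aqp4* that of the fast fibre membrane, where the dystrophin complex anchors it, and *Aqp7* also passes glycerol and is known from adipocytes and capillaries.

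The catalytic difference can be read in the coding sequence. The windows below are shown because they hold the codons for a pair of zinc-binding histidines. They were read from GENCODE M21 coding exons on GRCm38, in the direction of the transcript, and capitals mark the codons at these positions.
Car2: cagtttCACtttCACtggggctca
Car3: caattcCATcttCACtggggctcc
Car4: cagttgCACctgCACtggtcaaat
Car14: cagctcCACctgCACtggggtcag
Car5b: cagtttCATtttCATtggggagcc
Car8: gaagttAGAtttCACtggggaaga
*Car2* (chr3:14895063-14895086, plus strand) and *Car3* (chr3:14866844-14866867, plus strand) hold this stretch in exon 3, and *Car4* (chr11:84964161-84964184, plus strand) in exon 4. *Car14* (chr3:95900300-95900323, minus strand) and *Car5b* (chrX:163991405-163991428, minus strand) also hold it in exon 4. In *Car8* (chr4:8221604-8221627, minus strand, exon 3) the first codon is one for arginine, whereas the other 5 genes have histidine at both positions.

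For the aquaporins, the codons of the channel boxes, the short motifs that meet in the pore, are in capitals.
Aqp1, first box: agcggtgctcacctcAACCCTGCGgtc
Aqp1, second box: ggtatcAACCCTGCCcggtcattt
Aqp7, first box: tctggggcccacatgAATGCCGCAgtg
Aqp7, second box: gcaatcAACCCATCCcgtgacctg
Both boxes of *Aqp1* (chr6:55336701-55336727 and chr6:55345831-55345854, plus strand, exons 1 and 3) encode asparagine, proline and alanine. Those of *Aqp7*, the glycerol channel, encode asparagine, alanine and alanine, and then asparagine, proline and serine. The window printed for the former spans exons 4 and 5, and that for the latter lies in exon 7 (chr4:41034804-41034827, minus strand). The window of *Aqp4* is not shown here.

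The muscle level of these genes was led by *Car3* and *Aqp1*. Per length, as CPM per kilobase of the deposited gene length, *Car3* had a median of 1786 over the 16 mice (range 1186 to 2499), and 24 of the genes tested were higher. *Aqp1* followed with a median of 241 (range 179 to 286), and 159 genes tested were higher. *Car3* made up a median of 97.7% (range 95.9% to 98.4%) of the summed level per length of 16 carbonic anhydrase genes. *Aqp1* made up 93.2% (range 90.4% to 95.3%) of that of 12 aquaporin genes. Both genes were therefore ahead of the rest of their family in every mouse.

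The next 5 genes lay close to each other. Median CPM per kilobase was 11.5 for *Aqp4*, 10.5 for *Car14*, 9.02 for *Car4*, 8.73 for *Car2* and 5.40 for *Aqp7*. Neighbours in this order overlapped: *Aqp4* was above *Car14* in 10 of 16 mice, *Car14* above *Car4* in 12, *Car4* above *Car2* in 10, and *Car2* above *Aqp7* in 14. *Car8* (median 2.67) and *Car5b* (median 0.362) were lower, and their ranges did not overlap with each other or with that of *Aqp7*. *Car5b* was thinly covered, with 19 to 113 counts per library, whereas the smallest count of any other gene of the 9 was 111, for *Car8*.

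**Figure D1:**
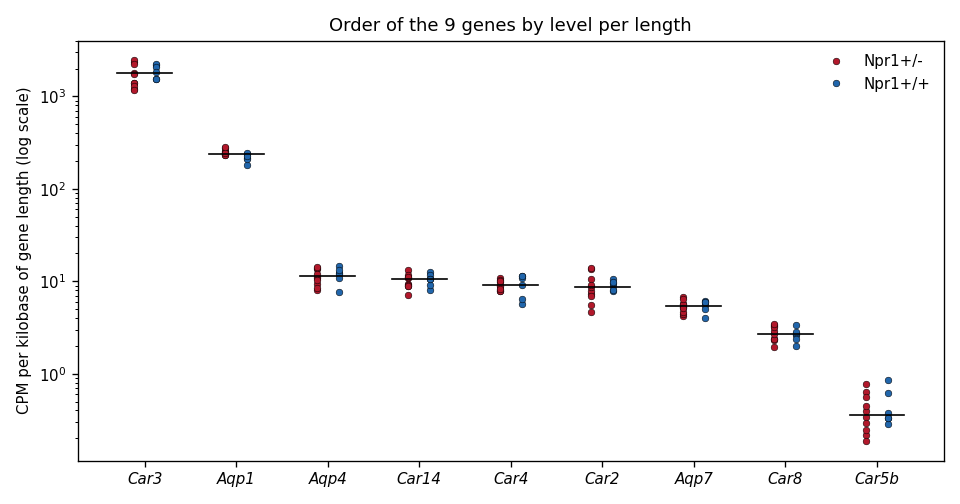
Level of each gene as CPM per kilobase of gene length (log scale), with 1 point per mouse (10 Npr1+/- in red, 6 Npr1+/+ in blue) and a bar at the median of 16. *Car3* (median 1786) and *Aqp1* (median 241) stand above the 7 others, of which *Aqp4*, *Car14*, *Car4*, *Car2* and *Aqp7* overlap with their neighbours.

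The coefficient of variation of CPM over 16 mice was largest for *Car5b* (46.8%), *Car2* (27.8%) and *Car3* (24.6%), and smallest for *Aqp1* (10.3%). The other 5 genes lay between 14.7% (*Aqp7*) and 19.5% (*Aqp4*).

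None of the 9 genes passed the test between the genotype labels. The model held terms for cage and body weight. It called 0% of the 14331 genes tested at an adjusted p under 0.05 and 1.05% at an unadjusted p under 0.05 (78 higher and 73 lower in Npr1+/-). Of the 9, 0 were called in edgeR at either threshold, and by any of the alternatives tried 0 had an adjusted p under 0.05 (lowest 0.592, for *Car2*). Among the 6 carbonic anhydrases the median log2 fold change was -0.02, and among the 3 aquaporins 0.14, beside -0.01 over all genes tested. The ranges of both labels overlapped for each gene.

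*Car3* ranged from 3399 to 7159 CPM (median 4542) in Npr1+/- mice and from 4469 to 6487 CPM (median 5612) in Npr1+/+ mice. The Npr1+/- libraries thus reached both lower and higher than the Npr1+/+ libraries, and 3 of 10 lay inside the Npr1+/+ range. The fitted log2 fold change was 0.11 (SE 0.21, 95% interval -0.34 to 0.55, adjusted p = 1.0 in edgeR). Its sign is opposite to that of the group means, 4928 ± 1445 (SD, n = 10) and 5497 ± 892 (SD, n = 6), and without the body weight term it was -0.16.

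*Car2* ranged from 11.4 to 33.7 CPM (median 20.1) in Npr1+/- mice and from 18.9 to 25.7 CPM (median 22.3) in Npr1+/+ mice. Its spread was wide in Npr1+/- mice (SD 7.50, n = 10) and narrower in Npr1+/+ mice (SD 2.65, n = 6), with 4 of 10 Npr1+/- libraries inside the Npr1+/+ range. The log2 fold change was -0.03 (SE 0.23, 95% interval -0.51 to 0.46, adjusted p = 1.0 in edgeR), and over all alternatives it ranged from -0.28 to 0.16.

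*Car5b*, the mitochondrial enzyme, ranged from 1.18 to 4.91 CPM (median 2.33) in Npr1+/- mice and from 1.80 to 5.49 CPM (median 2.26) in Npr1+/+ mice. The highest library was replicate 4 labelled Npr1+/+. The log2 fold change was -0.18 (SE 0.35, 95% interval -0.91 to 0.56, adjusted p = 1.0 in edgeR), the widest interval of the 9. It was -0.40 without the body weight term and -0.07 without the cage term. Without that library it was 0.72, the largest shift that leaving out 1 mouse gave, and it did not pass the threshold.

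The 2 carbonic anhydrases at the cell surface had fitted values near 0. *Car4* ranged from 15.3 to 21.6 CPM (median 17.5) in Npr1+/- mice and from 11.2 to 22.5 CPM (median 19.6) in Npr1+/+ mice, so that all 10 Npr1+/- libraries lay inside the Npr1+/+ range. Its log2 fold change was -0.01 (SE 0.18, 95% interval -0.39 to 0.36). *Car14* ranged from 18.2 to 33.6 CPM (median 25.8) and from 20.6 to 31.9 CPM (median 26.7), with a log2 fold change of -0.04 (SE 0.15, 95% interval -0.35 to 0.27). *Car14* lies on the chromosome of the targeted gene, 5431902 bp from *Npr1*, and *Car2* and *Car3* lie on it too, neighbours 13750 bp apart. *Car8*, the inactive relative, ranged from 7.57 to 13.2 CPM (median 10.8) in Npr1+/- mice and from 7.72 to 12.8 CPM (median 10.2) in Npr1+/+ mice, with a log2 fold change of 0.19 (SE 0.17, 95% interval -0.18 to 0.56). Without the body weight term that of *Car8* was 0.02, and with the label alone in the model 0.08. Each of these had an adjusted p of 1.0 in edgeR.

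*Aqp1* was the nearest to separate. It ranged from 607 to 750 CPM (median 646) in Npr1+/- mice and from 470 to 647 CPM (median 583) in Npr1+/+ mice. The means were 657 ± 45.3 (SD, n = 10) and 578 ± 64.1 (SD, n = 6), with 6 of 10 Npr1+/- libraries inside the Npr1+/+ range and the others above it. The log2 fold change was 0.19 (SE 0.14, 95% interval -0.10 to 0.48), with an unadjusted p of 0.186 and an adjusted p of 1.0 in edgeR. Over all alternatives it stayed between 0.11 and 0.24 and did not pass the threshold (lowest adjusted p 0.812).

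*Aqp4* ranged from 50.3 to 89.3 CPM (median 68.6) in Npr1+/- mice and from 47.6 to 90.4 CPM (median 75.3) in Npr1+/+ mice, so all Npr1+/- libraries were inside the Npr1+/+ range. Its log2 fold change was 0.14 (SE 0.19, 95% interval -0.26 to 0.53), and with the label alone in the model it was -0.07. *Aqp7* ranged from 11.8 to 18.9 CPM (median 14.9) and from 11.3 to 17.4 CPM (median 16.2), with a log2 fold change of -0.05 (SE 0.17, 95% interval -0.41 to 0.32). Both had an adjusted p of 1.0 in edgeR. As linear folds, the 95% interval was narrowest for *Car14* (0.786 to 1.21) and *Aqp1* (0.933 to 1.39), and reached from 0.702 to 1.37 for *Car2*.

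**Figure D2:**
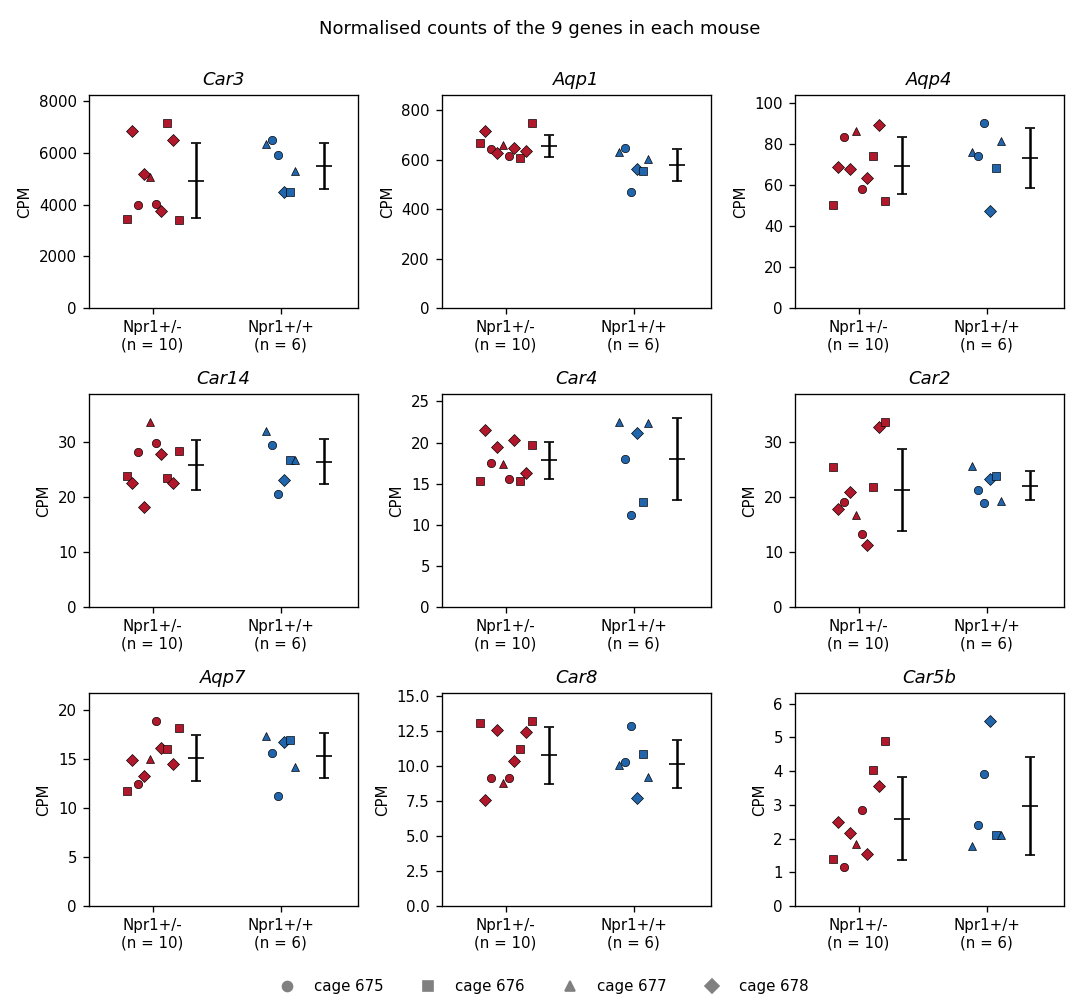
CPM of each gene (linear axes from 0) in the 10 Npr1+/- and 6 Npr1+/+ mice, 1 point per mouse with its cage as the symbol, and beside each group its mean ± SD. The groups overlap in every panel, *Car2* is spread from 11.4 to 33.7 among Npr1+/- mice, and 4 of the Npr1+/- points of *Aqp1* lie above all Npr1+/+ points.

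Body weight, the other measure the labels give for each mouse, was tested in the same model. It called 0% of all genes at an adjusted p under 0.05 and 17.1% at an unadjusted p under 0.05 (680 up and 1769 down with weight). Of the 9 genes, 0 had an adjusted p under 0.05 in edgeR, and *Car3* was the only gene with an unadjusted p under 0.05. Under alternatives, *Car8* also had one without the cage term (0.0202), without Npr1+/- replicate 2 (0.0244) and without Npr1+/- replicate 7 (0.0442 in edgeR), *Car2* had one without Npr1+/- replicate 3 (0.0251 in edgeR) and *Car5b* had one without Npr1+/+ replicate 4 (0.0043 in edgeR). The log2 change of *Car3* was 0.67 per 10 g (SE 0.28, 95% interval 0.09 to 1.26, unadjusted p = 0.0268, adjusted p = 0.258 in edgeR). Without the cage term it was 0.27 (unadjusted p = 0.258 in edgeR), with body weight alone in the model 0.30 (unadjusted p = 0.154 in edgeR), and the unadjusted p also rose to 0.0638 without Npr1+/- replicate 7 and to 0.0727 without Npr1+/+ replicate 4. The other carbonic anhydrases had values of 0.67 for *Car5b* (SE 0.49), 0.42 for *Car2* (SE 0.30), 0.40 for *Car8* (SE 0.21), -0.13 for *Car4* (SE 0.23) and -0.31 for *Car14* (SE 0.19). Leaving out 1 mouse moved that of *Car5b* to between 0.35 (without Npr1+/- replicate 3) and 1.48 (without Npr1+/+ replicate 4, adjusted p = 0.251 in edgeR), and that of *Car2* to between 0.18 (without Npr1+/- replicate 7) and 0.81 (without Npr1+/- replicate 3, adjusted p = 0.0850 in edgeR). *Aqp4* had a value of 0.23 (SE 0.23), *Aqp1* one of -0.02 (SE 0.18) and *Aqp7* one of -0.05 (SE 0.23). That of *Aqp4* was 0.04 without the cage term, 0.43 without Npr1+/- replicate 3 and 0.05 without Npr1+/+ replicate 4, and that of *Car14* was -0.16 without the cage term, -0.11 with body weight alone and -0.16 without Npr1+/+ replicate 3. Over all alternatives the weight value ranged from -0.37 to 0.11 for *Car4*, from 0.28 to 0.51 for *Car8*, from -0.14 to 0.14 for *Aqp1* and from -0.23 to 0.17 for *Aqp7*.

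Cage was tested over its 4 levels, and 0.0279% of all genes were called at an adjusted p under 0.05 and 7.36% at an unadjusted p under 0.05. None of the 9 genes was called at either threshold in edgeR. *Car14* came closest (unadjusted p = 0.0623, adjusted p = 0.656 in edgeR), with cage means from 22.9 ± 3.41 CPM (SD, n = 5, cage 678) to 30.7 ± 3.61 CPM (SD, n = 3, cage 677). Its unadjusted p in edgeR was 0.0402 without the genotype term, 0.0453 without Npr1+/- replicate 3 and 0.0491 without Npr1+/- replicate 7. That of *Car2* was 0.0441 without Npr1+/- replicate 3, and that of *Car3* 0.0165 without Npr1+/- replicate 8, in edgeR.

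**Figure D3:**
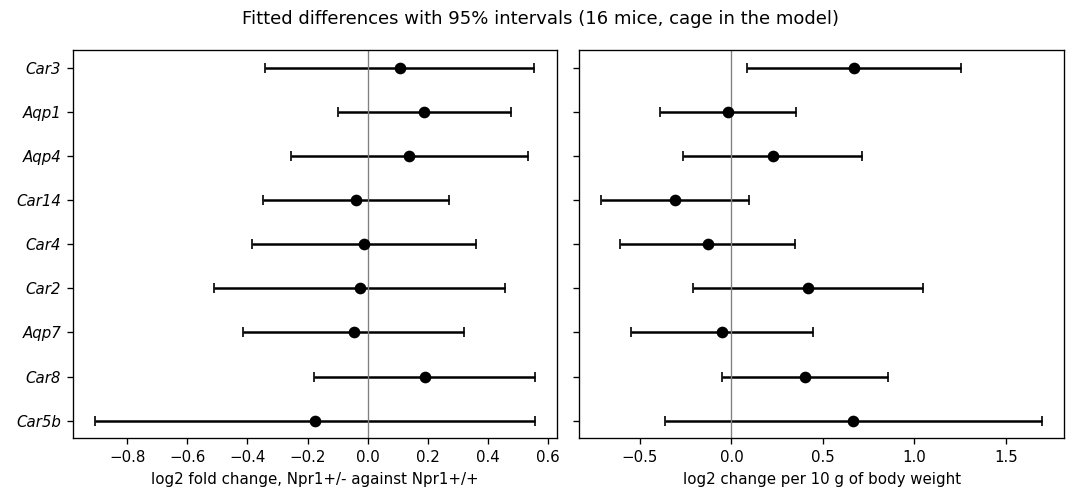
Fitted log2 fold change between the labels (left) and log2 change per 10 g of body weight (right) for each gene, with 95% intervals from edgeR's model of 16 mice. All genotype intervals cross 0. For body weight, that of *Car3* (0.09 to 1.26) does not, although its adjusted p is 0.258.

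Of 16 carbonic anhydrase genes 11 were tested, and of 12 aquaporins 4. The others had few or no counts, and *Car5a*, *Aqp6* and *Aqp12* were at 0 counts in all libraries. *Car11*, another relative without catalytic activity, had a median of 7.61 CPM per kilobase, above that of *Aqp7*, and was at 14.0 ± 3.11 CPM (SD, n = 10) in Npr1+/- and 15.4 ± 2.93 CPM (SD, n = 6) in Npr1+/+ mice. *Car7*, a cytosolic enzyme, was at 3.52 ± 0.465 and 4.16 ± 1.20 CPM, and *Car9*, known to be induced by low oxygen, at 1.31 ± 0.328 and 1.32 ± 0.311 CPM. *Car1* (0.978 ± 0.413 and 0.956 ± 0.406 CPM), *Car13* (0.705 ± 0.280 and 0.772 ± 0.288 CPM) and *Aqp11* (0.730 ± 0.231 and 0.719 ± 0.094 CPM) were near 1 CPM. Of the 11 carbonic anhydrases, 0 were called by genotype label, weight or cage at an adjusted p under 0.05 in edgeR. At an unadjusted p under 0.05 by weight, which 17.1% of all genes tested had, there were 3 of the 11, none past the adjusted threshold: *Car3*, *Car1* (1.10 per 10 g on the log2 scale, adjusted p = 0.279) and *Car13* (1.06, adjusted p = 0.258). They lie beside each other on chromosome 3, as does *Car2*, whose unadjusted p by weight was 0.180 in edgeR.

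Genes that act with these proteins did not pass the threshold by genotype label. Of 15 tested genes of acid, lactate and bicarbonate transport, 0 were called by genotype label at an adjusted p under 0.05, and the median log2 fold change was -0.04. The gene with the smallest p was *Slc4a3*, a chloride-bicarbonate exchanger, with 7.47 ± 2.11 CPM (SD, n = 10) in Npr1+/- and 6.33 ± 0.421 CPM (SD, n = 6) in Npr1+/+ mice and a log2 fold change of 0.28 (SE 0.21, adjusted p = 1.0 in edgeR). The dystrophin complex, the anchor of *Aqp4*, had 14 tested genes, 0 called and a median of 0.04. The glycerol and triglyceride genes had 14 tested genes, 0 called and a median of -0.06. There *G0s2*, an inhibitor of adipose triglyceride lipase, had the smallest p, at 24.9 ± 12.5 CPM (SD, n = 10) in Npr1+/- and 37.2 ± 9.75 CPM (SD, n = 6) in Npr1+/+ mice, with a log2 fold change of -0.41 (SE 0.26, adjusted p = 1.0 in edgeR).

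No pair of the 9 genes passed a test of covariation. Of their 36 pairs, 0 had an adjusted p under 0.05 on r or on rho over the 16 mice by a permutation test (100000 resamples), and 3 had an unadjusted p under 0.05 on r. The highest Pearson r was that of *Car3* and *Aqp4*, 0.622 (adjusted p = 0.280 by permutation, Spearman rho 0.547). It was 0.425 without the 2 mice farthest from the median of *Car3* and 0.613 within cages. *Car4* and *Aqp1* came next with 0.597 (adjusted p = 0.280 by permutation), but their rho was 0.288, and r was 0.03 without 2 mice. *Aqp7* and *Car14* gave 0.507 (adjusted p = 0.501 by permutation).

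*Car2* varied with the mean levels of endothelial and macrophage markers. Each gene was compared with the mean log2 CPM of 9 marker lists over the 16 mice, in 81 relations. Of these, 3 passed an adjusted p under 0.05 on r, 3 on rho and 2 on both, and the latter are the relations of *Car2* with endothelial and macrophage markers. The share of all genes tested that relate to these marker levels was not computed. With the endothelial level *Car2* had an r of -0.885 (adjusted p = 0.00243 by permutation) and a rho of -0.838 (adjusted p = 0.00648 by permutation). Without the 2 mice farthest from the median endothelial level r was -0.739, within cages -0.852, among the 10 Npr1+/- mice -0.916 and among the 6 Npr1+/+ mice -0.381. The 11 endothelial markers did not all move alike. Per 10 g of body weight their median log2 change was -0.57, with 2 above 0. *Egfl7*, the marker highest by CPM, was 1 of these 2, at 0.54 (SE 0.26). The 5 mice with the highest endothelial level, all Npr1+/-, are the 5 in which *Car2* was at 19.1 CPM or below in that group. Npr1+/+ replicate 3 was also low in *Car2*, at 18.9 CPM, but its endothelial level was 4.82, below the 5.14 of Npr1+/- replicate 3. Of the 11 endothelial markers, 0 had an unadjusted p under 0.05 by label in edgeR, beside 1.05% of all genes tested. With the macrophage level *Car2* had an r of 0.742 (adjusted p = 0.0235 by permutation) and a rho of 0.835 (adjusted p = 0.00648 by permutation). This r was 0.678 without 2 mice, 0.676 within cages, and 0.749 and 0.692 within the labels. With the erythrocyte level r was 0.650 (adjusted p = 0.0875 by permutation), with 0.797 among Npr1+/- and -0.146 among Npr1+/+ mice. With the nerve and Schwann cell level r was -0.534 (adjusted p = 0.222 by permutation). Neither passed.

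The same mice are ordered alike by a pattern that spans the transcriptome. The first principal component of all genes tested held 43.7% of the variance, and 4 library-wide measures, added after the data had been seen, were compared with the 9 genes and 3 marker levels in 48 relations, of which 8 passed on r. *Car2* had an r of -0.953 with that component. With the long-minus-short measure (the median log2 level of the longest genes less that of the shortest, by tertiles of gene length) it had an r of -0.971 and a rho of -0.971 (adjusted p = 0.00012 and 0.00024 by permutation, from the smallest p that the resamples can give). This r was -0.938 without 2 mice and -0.974 within cages. The endothelial level itself had an r of 0.944 with the component and of 0.906 with the length measure, and the macrophage level had -0.762 and -0.741. At an r of at least 0.7 in size, *Car2* shared its pattern with 2549 genes in the same and 2713 in the opposite direction, of 14330 others tested. For *Aqp1* these counts were 2 and 0. With total counts *Car2* had an r of -0.198 (adjusted p = 0.742 by permutation). The part of the library-wide pattern in the relation of *Car2* to the endothelial and macrophage levels was not tested.

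**Figure D4:**
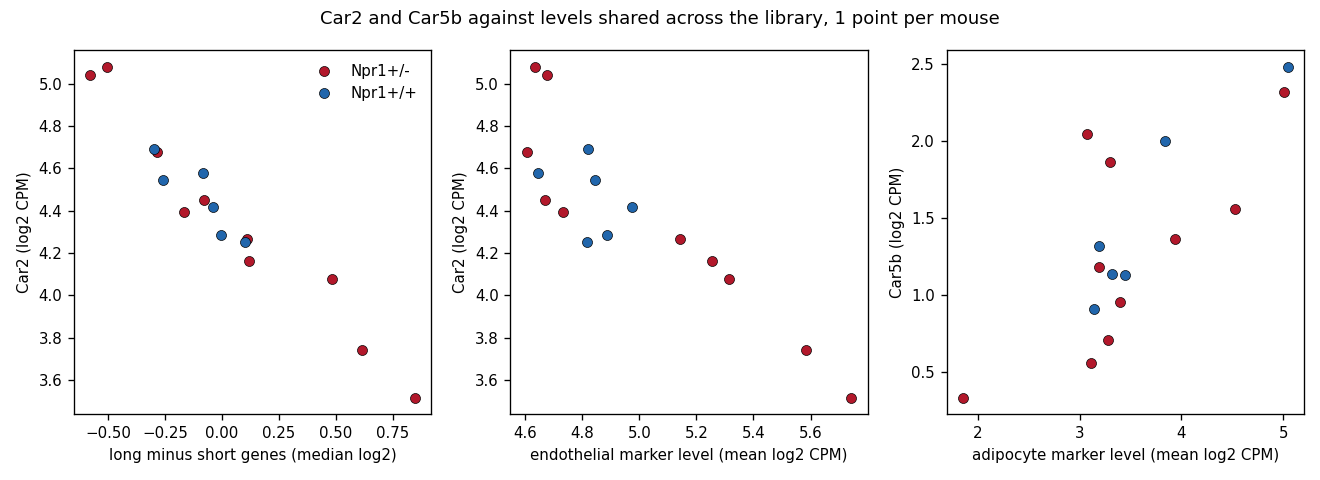
Log2 CPM of *Car2* against the long-minus-short measure (left, r = -0.971) and the endothelial marker level (middle, r = -0.885), and log2 CPM of *Car5b* against the adipocyte marker level (right, r = 0.752), with 1 point per mouse (10 Npr1+/- in red, 6 Npr1+/+ in blue). In the first pair of panels *Car2* falls across the whole range, and in the right panel 1 mouse of each label lies at the upper end.

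*Car5b* was higher in mice with a higher level of adipocyte markers. Its r with the adipocyte level was 0.752 (adjusted p = 0.0235 by permutation), while its rho was 0.606 (adjusted p = 0.173 by permutation) and did not pass. Without the 2 mice farthest from the median (replicate 4 labelled Npr1+/+ and replicate 10 labelled Npr1+/-), r was 0.544, so its size rests partly on those mice. With the adipocyte level taken as the summed CPM of the list, over all 16 mice, r was 0.458. Within cages r was 0.741, and within the labels 0.672 and 0.929. The summed CPM of the adipocyte list ranged from 210 to 562 in Npr1+/- and from 220 to 541 in Npr1+/+ mice, led by *Plin4* (180 CPM on average). Per 10 g of body weight *Plin4* had a log2 change of -1.01 (SE 0.35). The median over the 9 tested genes of the list was 0.29, with 5 above 0, so the sum and the mean log2 level can differ. Genes with a pattern most like that of *Car5b* over the 16 mice were *Serpina3c* (r = 0.909), *Prkar2b* (r = 0.884), a regulatory subunit of protein kinase A, and *Pde3b* (r = 0.878), a phosphodiesterase. *Aqp7*, known from adipocytes, had an r of 0.519 with the adipocyte level (adjusted p = 0.236 by permutation), with 0.779 among the 10 Npr1+/- mice and -0.00082 among the 6 Npr1+/+ mice.

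*Car3*, the enzyme of muscle fibres, had an r of -0.702 with the fast fibre level (adjusted p = 0.0526 by permutation) and a rho of -0.697 (adjusted p = 0.0666 by permutation), which did not pass the threshold. This r was -0.600 without 2 mice, -0.786 within cages, and -0.649 and -0.808 within the labels. With the skeletal muscle fibre level, whose list shares genes with the fast one, *Car3* had an r of -0.676 (adjusted p = 0.0625 by permutation). With the slow fibre level r was -0.173 (rho -0.029), and with the adipocyte level -0.193. The highest gene of the fast fibre list was *Pvalb*, the calcium buffer of fast fibres, at 20783 CPM on average. The level is a mean of log2 CPM, so the highest gene need not set its spread. Per 10 g of body weight *Pvalb* had a log2 change of 0.57 (SE 0.36). The median over the 9 genes of the list was -0.46, with 3 above 0. The relation of *Car3* to single genes of the list was not tested. *Aqp4*, the channel of fast fibres, had an r of -0.37 with the fast fibre level. Both genes were related to the GC measure, the median log2 level of GC-rich less that of GC-poor genes by tertiles of transcript GC content: r was -0.697 for *Car3* (adjusted p = 0.0158 by permutation, rho -0.659) and -0.731 for *Aqp4* (adjusted p = 0.00857 by permutation, rho -0.753). These were -0.630 and -0.812 without 2 mice and -0.740 and -0.818 within cages. The part of GC content in the levels of these genes was not tested.

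**Figure D5:**
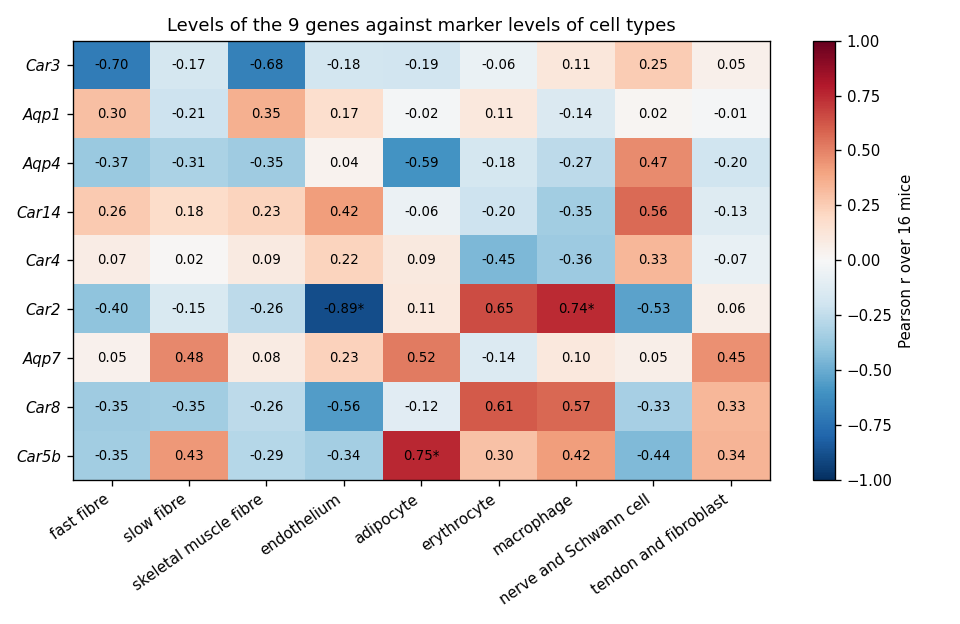
Pearson r over 16 mice between log2 CPM of each gene (rows, in order of level) and the marker level of each cell type (columns), with the colour from -1 (blue) to 1 (red) and an asterisk at an adjusted p under 0.05. Asterisks stand at *Car2* with endothelium (-0.89) and macrophage (0.74) and at *Car5b* with adipocyte (0.75).

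No other relation to a marker level passed on both r and rho. *Car8* had a rho of -0.759 with the endothelial level (adjusted p = 0.0281 by permutation) and an r of -0.559 (adjusted p = 0.178 by permutation). *Aqp1*, the channel of capillaries and erythrocytes, had an r of 0.17 with the endothelial level and of 0.11 with the erythrocyte level. The erythrocyte list was led by *Hbb-bs* (217 CPM on average), and its summed CPM ranged from 88.0 to 510 in Npr1+/- and from 192 to 320 in Npr1+/+ mice. None of its 5 tested genes was called by label in edgeR, and 2 had an unadjusted p under 0.05, beside 1.05% of all genes tested.

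Genes most like each of the others over the 16 mice were, by r, *Acad11*, an acyl-CoA dehydrogenase (0.857), *Oat* (0.853) and *Cse1l* (0.845) for *Car3*, and *Stard10*, a lipid transfer protein (0.981), *Ubxn6* (0.974) and *Eif3i* (0.972) for *Car2*. For *Aqp4* they were *Inpp4b*, a phosphoinositide phosphatase (0.928), *5730405O15Rik* (0.833) and *Zfp882* (0.833), and for *Car8* *Chrna2*, a nicotinic receptor subunit (0.829), *Gm32200* (0.808) and *Nus1* (0.804). For *Car14* they were *Ndrg1* (0.771), *Efna5* (0.737) and *Pdk4*, a kinase that inhibits pyruvate dehydrogenase (0.733), and for *Aqp7* *Vat1* (0.785), *CT009755.1* (0.770) and *Tmem214* (0.764). *Car4* was most like *Pcsk4* (0.750), *Gm5262* (0.709) and *Kcnj8*, a potassium channel subunit (0.702), and *Aqp1* most like *Cplx2* (0.748), *Scube2* (0.70) and *Gm10364* (0.687). The values are the highest of 14330 for each gene and stand as a description, without a test.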

How the data were processed

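Skeletal muscle mRNA of 16 mice was sequenced. The authors mapped reads to GRCm38 with STAR (2.7.2b in the processing notes), counted them per gene with featureCounts (1.6.4 there) and deposited raw counts with a gene length. The labels name a Tecan library kit and the paper's methods a TruSeq one. Genotype label, cage and body weight come from the labels. Symbols were matched through GENCODE M21 for 55144 of 55471 identifiers, and GC content for 14318 of 14331 genes tested.

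Genes passing filterByExpr were scaled by TMM and tested by edgeR 4.0.16 (R 4.3.3; glmQLFit, legacy, robust, glmQLFTest) on label, cage and body weight, with Benjamini-Hochberg adjustment and a threshold of 0.05. Log2 CPM used a prior count of 2. Correlations used a two-sided permutation test of 100000 resamples. On simulated counts of 14331 genes, the label test called 166 of 200 genes changed by 1.5 on the log2 scale and 8 unchanged ones. DESeq2 1.42.0 and limma 3.58.1 served as alternatives, beside other filters, scalings and covariates and leaving out each mouse.

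Genes named are the 9 genes, tested relatives, the 3 most similar genes to each, the partner-list gene with the smallest p (none was called) and the top marker of lists used. The members and lists were chosen with earlier results of these data known. *Aqp4* overlaps an antisense gene whose own counts came to 0.293% of those of *Aqp4*.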

Additional observations from a re-analysis of the deposited data

How the results depend on the processing

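No gene of the 9 passed the threshold by genotype label, body weight or cage under any alternative run (lowest adjusted p 0.592, 0.0850 and 0.163, each for *Car2*). DESeq2 gave no adjusted p by body weight for 6 of them, those other than *Car3*, *Aqp1* and *Aqp4*. Genes called by label numbered 6 with DESeq2, 8 without a filter on low counts, and 0 to 3 when 1 mouse was left out. Those called by body weight numbered 26 with DESeq2, 333 without the genotype term, and 0 to 3158 when 1 mouse was left out (3158 without Npr1+/- replicate 3). Those called by cage numbered 78 with DESeq2, 1 with limma-voom, 23 without a filter, 1 with at least 10 counts in every library, and 0 to 869 when 1 mouse was left out. The causes were not tested.

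Replicate numbers were not taken to pair mice across labels, although replicates 3 and 4 share a cage with their namesakes: deviations of same-numbered mice correlated at 0.0779 on average over 6 pairs (0.0328 to 0.170). A replicate block used instead of the cage term called 2 genes by label, and *Car3* (-0.18) and *Aqp4* (-0.072) changed sign. No paired value altered a call of the 9 genes.

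For the label, the sign changed for *Car3* to -0.16 with the label alone, -0.16 without body weight and -0.049 without cage, for *Aqp4* to -0.073 with the label alone and -0.053 without cage, for *Car14* to 0.080 without body weight, for *Car2* to 0.064 without cage, and for *Car4* to 0.0017 with RLE size factors, 0.00053 with DESeq2, 0.0035 without a filter and 0.038 without body weight. For body weight, that of *Aqp1* changed to 0.030 with RLE, 0.030 with DESeq2 and 0.0067 without a filter. Leaving out 1 mouse gave label values from -0.10 to 0.30 for *Aqp4*, -0.16 to 0.036 for *Aqp7*, -0.080 to 0.010 for *Car14*, -0.15 to 0.16 for *Car2*, -0.032 to 0.20 for *Car3*, -0.16 to 0.080 for *Car4* and -0.46 to 0.72 for *Car5b*, and weight values from -0.053 to 0.14 for *Aqp1*, -0.23 to 0.17 for *Aqp7* and -0.21 to 0.11 for *Car4*.

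From summed CPM in place of mean log2 CPM, r was -0.813 for *Car2* with the endothelial level and 0.458 for *Car5b* with the adipocyte level, and with mean log2 CPM but without the 2 farthest mice r was -0.739 and 0.544. *Car5b* had 19 to 113 counts per library.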
